A study of Mus musculus with 12 samples.

Results

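CD27+ common myeloid progenitors (CMP) were compared with granulocyte-monocyte progenitors (GMP) over the 3 arrays titled for each population, 6 of the 12 arrays of the study. The marrow donors were C57BL/6 females aged 4 to 6 weeks, and all sorted cells were lineage-negative, CD117+ and Sca-1-. Within these cells the CD27+ CMP gate was CD34+, CD16/32- and CD27+, and the GMP gate was CD34+, CD16/32+ and CD27+. The sort therefore set both populations apart by the CD16/32 Fc gamma receptors alone. The other 6 arrays held CD27- CMP, which were CD34+, CD16/32- and CD27-, and megakaryocyte-erythrocyte progenitors (MEP), which lacked all of CD34, CD16/32 and CD27. RNA of 80000 cells per population was hybridised to Affymetrix mouse arrays.

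CMP and GMP are stages of early blood formation, defined by surface gates. Cells in the CMP gate give rise in culture to GMP and to erythroid and megakaryocytic progenitors, while GMP give mainly neutrophils and monocytes. The CMP gate is known to be mixed and holds cells at different distances from the multipotent stage. Multipotent and lymphoid-primed cells are marked by the growth factor receptor gene Flt3, by Dntt, which encodes the polymerase that adds bases at immune receptor joints, and by stem cell transcription factor genes such as Mecom and Hlf. GMP are known for the granule proteins of future neutrophils, such as myeloperoxidase and elastase, and they also hold precursors of eosinophils and basophils.

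Values were read as log2 signals, although the log base is not given in the sources used here, and every fold rests on that reading. The authors centred them on the median of the 12 arrays for each probe set, so a value says how far an array lies from that median and levels cannot be set against each other between genes. A difference is the mean of the 3 CD27+ CMP arrays minus the mean of the 3 GMP arrays, and a gene passed with an adjusted p under 0.05 in limma, fitted over all 12 arrays. Of 45037 probe sets 1368 passed (3.04%). Of 18193 genes 948 passed (5.21%), 470 of them higher (2.58%) and 478 lower in CD27+ CMP (2.63%). In all 948 the 3 arrays of each population did not overlap, whereas of all genes 1362 (7.49%) were higher and 1487 (8.17%) lower without overlap. The counts of the gene lists below are to be read beside these shares. The median size of the called differences was 1.31 log2, 332 of the higher and 318 of the lower genes reached 1 log2, and the median difference of all genes was -0.0096.

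The 12-array fit takes the spread from all 4 populations. With the 6 arrays of CD27+ CMP and GMP alone 233 genes were higher and 244 lower, and 414 of these 477 had also passed with 12 arrays. Leaving out 1 array at a time gave as few as 310 higher genes (without GMP replicate 2) and 316 lower genes (without CD27+ CMP replicate 3), and 536 genes passed in all 12 such leave-one-out fits. The adjusted p of the 6-array fit, of the same fit with a replicate block (the blocked 6-array fit) and of the leave-one-out fits is given where these end a call, and that of the blocked fit beside genes that had passed on the 6 arrays without the block. For a gene flat in some populations the shared spread is smaller than that of the population in which it varied. The standard deviation of Dntt was 0.45 in CD27+ CMP and 0.023, 0.056 and 0.027 in GMP, CD27- CMP and MEP. Its adjusted p in limma was 1.52e-08 over 12 arrays and 0.00111 on the 6 arrays. The labels call the arrays biological replicates without saying that each came from separate animals. The p-values of the main fit thus measure the spread within populations over the 12 arrays. In sorted bulk samples a smaller share of cells with a transcript and less of it per cell cannot be told apart.

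**Figure D1:**
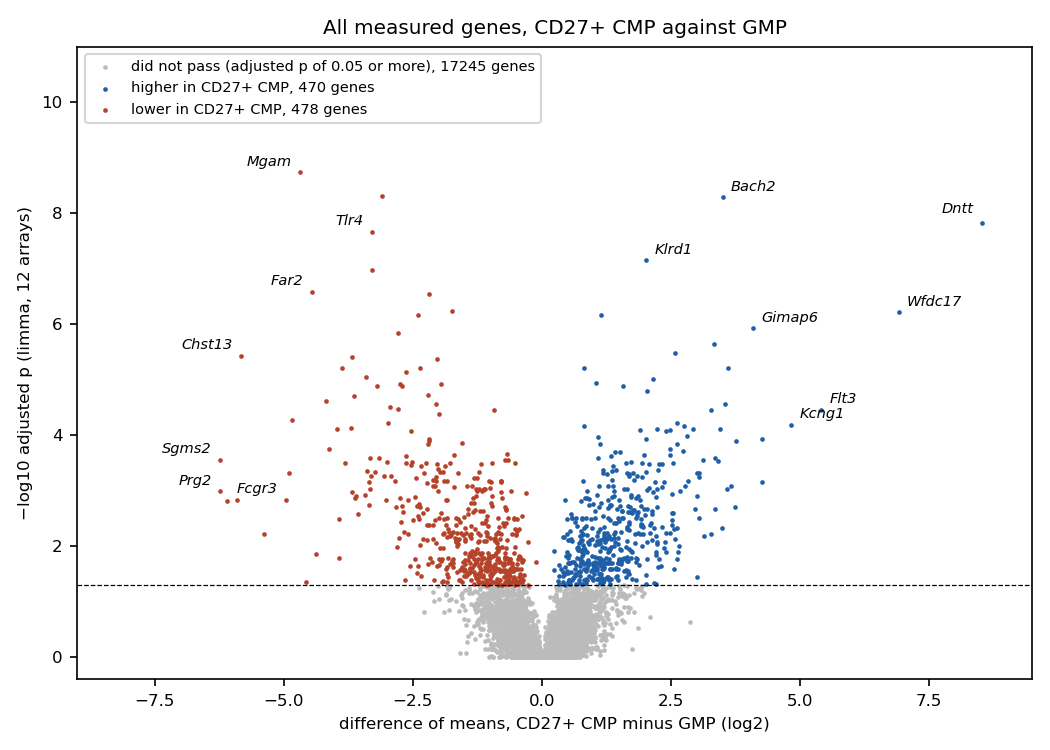
Each point is 1 of 18193 genes, with the log2 difference of means (CD27+ CMP minus GMP) on the x axis and -log10 of the adjusted p from limma on the y axis; the dashed line marks an adjusted p of 0.05. The 470 higher genes are blue and the 478 lower genes red, and Dntt lies farthest to the right at 8.52.

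Arrays of the same population were closer to each other than to the other population. Over the 15263 probe sets that spanned 1 log2 or more, the standard deviation of the differences between a CD27+ CMP and a GMP array had a median of 0.834 log2, against 0.520 within CD27+ CMP and 0.590 within GMP. The first principal component of the 6 arrays held 56.0% of the variance and put GMP at 49.8, 52.0 and 24.6 and CD27+ CMP at -32.6, -45.1 and -48.6. CD27+ CMP replicate 1 and GMP replicate 3 lay nearest to the other population. Among the 478 lower genes CD27+ CMP replicate 1 was the array of its group closest to GMP in 228, and GMP replicate 3 was the array closest to CD27+ CMP in 223. Among the 470 higher genes the same arrays were closest to the other population in 224 and 244. CD27+ CMP replicate 1 was thus often the highest array of its group for the lower genes, and the lowest for the higher genes.

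The genes behind the gates were examined at the RNA level, since the arrays did not measure the sorted proteins. Fcgr3, which encodes the CD16 receptor, read 3.65, 1.92 and 1.04 in CD27+ CMP and 7.35, 6.803 and 7.31 in GMP (log2 difference -4.95, SE 0.604, adjusted p = 0.00145, and 0.0822 in the blocked 6-array fit). Even the lowest GMP array exceeded the highest CD27+ CMP array, and CD27+ CMP replicate 1 was the highest of its group. Fcgr2b, which encodes CD32, read 3.72, 3.502 and 2.91 in CD27+ CMP and 4.82, 4.84 and 4.69 in GMP, also without overlap, but its difference of -1.404 did not pass (adjusted p = 0.062003). It passed with the replicate number as a block (adjusted p = 0.03903) and without MEP replicate 1 (adjusted p = 0.0102). Other Fcgr2b probe sets without overlap differed by -1.74, -1.44 and -1.44, and that at -1.74 passed over all probe sets (adjusted p = 1.80e-04). A further one was flat at -0.012. The mean of the Fcgr2b probe sets, at -1.21, passed as well (adjusted p = 0.0201). Cd27, the co-stimulatory receptor for which both gates were positive, read 3.92, 4.18 and 4.19 in CD27+ CMP and 2.36, 2.54 and 3.13 in GMP (log2 difference 1.42, SE 0.24, adjusted p = 0.00849; adjusted p = 0.0567 on the 6 arrays). Cd34 read 4.097, 3.998 and 4.201 in CD27+ CMP and 3.09, 2.85 and 3.13 in GMP, again without overlap. Its difference of 1.07 did not pass over 12 arrays (adjusted p = 0.727) or without the 3 MEP arrays (adjusted p = 0.109), and did on the 6 arrays (adjusted p = 0.0156). Kit, the gene of CD117, differed by -0.33 and overlapped (adjusted p = 0.916).

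Of 31 measured stem and multipotent progenitor genes 13 were higher in CD27+ CMP and 0 lower (21 and 0 at an unadjusted p under 0.05 in limma), and their median log2 difference was 0.83. On the 6 arrays 9 passed, and without GMP replicate 2 there were 8. Mecom, whose zinc finger transcription factor maintains stem cells, read 2.83, 2.76 and 3.24 in CD27+ CMP and 0.71, 0.013 and 0.65 in GMP (log2 difference 2.48, SE 0.18, adjusted p = 8.06e-05). Hlf, a leucine zipper transcription factor gene of stem cells, read 3.02, 2.97 and 2.83 in CD27+ CMP and 0.91, 1.33 and 0.66 in GMP (log2 difference 1.97, SE 0.17, adjusted p = 2.28e-04). Meis1, a homeobox cofactor of the Hox proteins, read 1.87, 2.23 and 2.12 in CD27+ CMP and 0.011, -0.011 and 0.41 in GMP (log2 difference 1.94, SE 0.199, adjusted p = 5.66e-04). For each of these genes the 6 arrays fell into separate ranges, with GMP readings between -0.011 and 1.33. Angpt1, encoding the ligand angiopoietin-1 of the Tek receptor, differed by 2.73 (adjusted p = 1.92e-04), with readings of 2.82, 2.18 and 2.53 against -0.038, -0.37 and -0.26.

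Mycn, a Myc family gene, had the largest difference of the list at 3.05 (SE 0.43, adjusted p = 0.00317, and 0.0683 in the blocked 6-array fit), from 0.48, 1.61 and 2.103 in CD27+ CMP and -1.82, -1.62 and -1.52 in GMP. The 3 CD27+ CMP readings of Mycn were spread over more than 1 log2 yet stayed above all GMP readings. Gata2, a zinc finger factor of stem cells and of mast cell and megakaryocyte precursors, read -0.16, -0.019 and -0.39 in CD27+ CMP and -1.33, -1.32 and -1.499 in GMP (log2 difference 1.19, SE 0.198, adjusted p = 0.00761). Lmo2, an adaptor in blood transcription factor complexes, differed by 0.57 (adjusted p = 0.00266, and 0.0512 in the blocked 6-array fit) and Mn1, a leukaemia-associated cofactor gene, by 1.73 (adjusted p = 0.00132, and 0.0733 in the blocked 6-array fit). Procr, the endothelial protein C receptor used to sort stem cells, differed by 1.83 (adjusted p = 0.0167, and 0.171 on the 6 arrays), and did not pass without GMP replicate 2 (adjusted p = 0.0559). Zfp521, a zinc finger gene of immature cells, differed by 1.56 (adjusted p = 0.0174, and 0.0756 on the 6 arrays), and did not pass without CD27+ CMP replicate 3 or GMP replicate 1 or 2 (adjusted p = 0.0612 to 0.0686). Gfi1b, a repressor gene of the erythroid and megakaryocytic branch, read -2.86, -2.28 and -2.15 in CD27+ CMP and -5.67, -4.77 and -3.59 in GMP, all below the 12-array median. Its difference of 2.25 (adjusted p = 0.0239) did not pass on the 6 arrays (adjusted p = 0.169), and it did not pass without CD27+ CMP replicate 2 or 3 or GMP replicate 1 or 2 (adjusted p = 0.0528 to 0.0905). Erg and Hoxa9, transcription factor genes of progenitors at large, differed by 0.83 and 0.44 without overlap and did not pass (adjusted p = 0.0756 and 0.103).

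Early lymphoid genes held the largest difference of the comparison. Of 24 measured genes 8 passed, all higher in CD27+ CMP, with a median log2 difference of 0.78 over the list, and on the 6 arrays 5 passed. Dntt read 7.96, 8.84 and 8.55 in CD27+ CMP and -0.051, -0.077 and -0.097 in GMP (log2 difference 8.52, SE 0.18, adjusted p = 1.52e-08), a 368-fold difference on this scale. Dntt was near the 12-array median in GMP, CD27- CMP and MEP alike. Flt3 read 7.09, 7.11 and 7.22 in CD27+ CMP and 0.92, 1.62 and 2.65 in GMP (log2 difference 5.41, SE 0.35, adjusted p = 3.48e-05). The GMP arrays of Flt3 were spread over more than 1 log2, and the other populations lay lower still, at -1.14 in CD27- CMP and -1.24 in MEP. Ltb, encoding lymphotoxin beta, read 2.52, 2.31 and 2.17 in CD27+ CMP and 0.35, -0.011 and -0.053 in GMP (log2 difference 2.24, SE 0.25, adjusted p = 9.52e-04). Sox4, a transcription factor gene of early lymphoid cells, differed by 2.62 (adjusted p = 0.01703, and 0.129 on the 6 arrays) and did not pass without CD27+ CMP replicate 1 (adjusted p = 0.0602). Satb1, a chromatin organiser of lymphoid cells, read 4.53, 4.08 and 4.33 in CD27+ CMP and 2.63, 2.500 and 2.14 in GMP without overlap and differed by 1.89 (adjusted p = 0.02204), but it did not pass without CD27+ CMP replicate 1 or 3 or any GMP replicate (adjusted p = 0.0543 to 0.0767).

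Il7r, the interleukin 7 receptor chain that lymphocyte progenitors need, read 0.25, 0.66 and 0.55 in CD27+ CMP and -0.023, 0.0062 and -0.038 in GMP (log2 difference 0.51, SE 0.085, adjusted p = 0.00783; adjusted p = 0.116 on the 6 arrays). Ccr7, a homing receptor, differed by 0.77 (adjusted p = 0.00766, and 0.104 on the 6 arrays). The arrays of both genes did not overlap. Rag2, a recombinase gene, read 0.46, 0.95 and 1.37 in CD27+ CMP and 0.14, 0.0050 and -0.057 in GMP, with an adjusted p of 0.0218 that became 0.0514 with the replicate block and 0.196 on the 6 arrays. It also did not pass without CD27+ CMP replicate 2 or any GMP replicate (adjusted p = 0.0517 to 0.0818). Its partner Rag1 differed by -0.0076 and read between -0.019 and 0.020 on the 6 arrays. Notch1, the receptor gene of T cell commitment, read 4.06, 3.92 and 3.95 in CD27+ CMP and 2.74, 1.903 and 2.78 in GMP without overlap but did not pass (log2 difference 1.501, adjusted p = 0.0712).

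**Figure D2:**
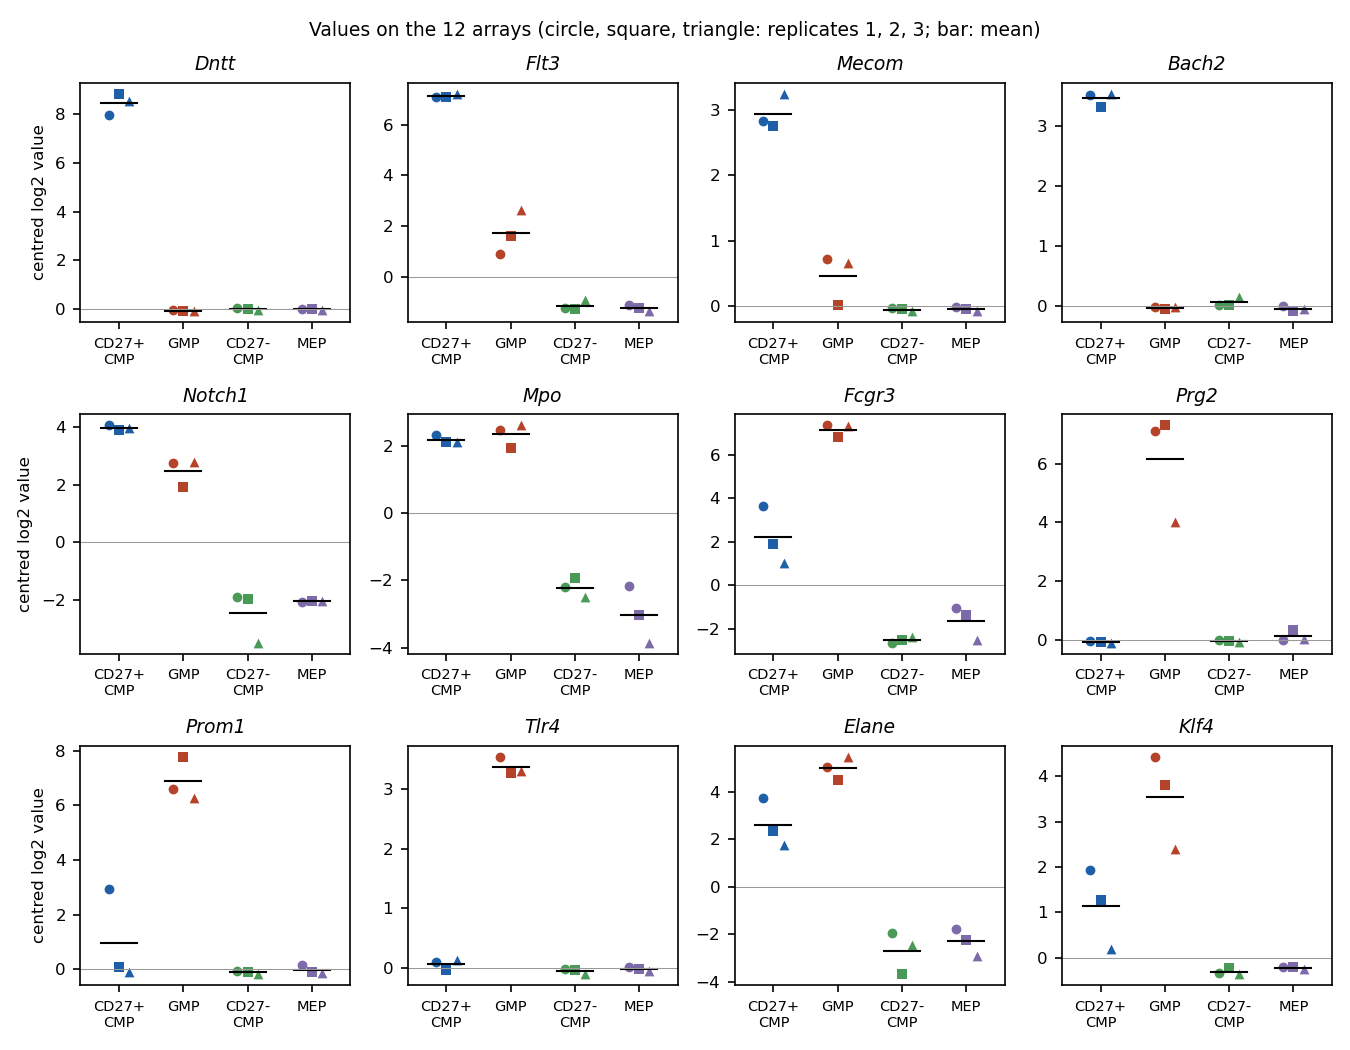
Centred log2 values of 12 genes on the 12 arrays, by population on the x axis; circles, squares and triangles are replicates 1, 2 and 3 and bars are means. Dntt and Bach2 are raised in CD27+ CMP alone, Prg2 and Tlr4 in GMP alone, Mpo and Elane in both, and CD27+ CMP replicate 1 is the highest of its group for Fcgr3 (3.65), Prom1 (2.93), Elane (3.74) and Klf4 (1.94).

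The Gimap genes, which encode small GTPases of lymphocytes, lie next to one another in the genome, and 5 of the 8 passed, all higher in CD27+ CMP (median log2 difference 0.84). In RefSeq order the 8 neighbours were Gimap8 at 0.24, Gimap9 at 1.44, Gimap4 at 0.023, Gimap6 at 4.09, Gimap7 at 1.73, Gimap1 at 3.36, Gimap5 at 0.035 and Gimap3 at -0.0031. The flat neighbours Gimap4, Gimap5 and Gimap3 spanned only 0.19, 0.18 and 0.059 log2 over the 12 arrays. In centred values, signal at background everywhere cannot be told apart from an equal level in all populations. A pattern along the row can therefore not be read from them. Gimap6 read 1.404, 1.67 and 2.04 in CD27+ CMP and -2.54, -2.24 and -2.37 in GMP (SE 0.16, adjusted p = 1.17e-06), and Gimap1 read 2.52, 3.36 and 3.54 in CD27+ CMP and -0.55, -0.021 and -0.104 in GMP (adjusted p = 2.57e-04). Gimap6 and Gimap9 were below the median in GMP, and the CD27- CMP and MEP means of Gimap6 were 0.23 and -0.12, so GMP was the low population. Gimap7 did not pass on the 6 arrays (adjusted p = 0.149), and Gimap9 not in the blocked 6-array fit (adjusted p = 0.0643). Gimap8 passed with an adjusted p of 0.0268 and not on the 6 arrays (adjusted p = 0.134), and it did not pass without CD27+ CMP replicate 1 or 2, any GMP replicate or MEP replicate 2 (adjusted p = 0.0509 to 0.0961).

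Of 10 measured genes of MHC class II antigen presentation 3 were higher in CD27+ CMP (median log2 difference 0.39), and 1 was on the 6 arrays. H2-Ob, a chain of the chaperone H2-O that restrains peptide loading, read 3.27, 3.22 and 3.73 in CD27+ CMP and 0.37, 0.028 and 0.67 in GMP (log2 difference 3.05, SE 0.304, adjusted p = 4.75e-04). H2-DMb2, a chain of the loading factor H2-M, read 2.77, 2.54 and 2.62 in CD27+ CMP and 0.94, 0.59 and 1.51 in GMP (log2 difference 1.63, adjusted p = 0.0106, and 0.05201 on the 6 arrays). H2-DMa, its partner chain, differed by 1.49 (adjusted p = 0.0171, and 0.1101 on the 6 arrays), and did not pass without CD27+ CMP replicate 2 or 3 or GMP replicate 1 or 2 (adjusted p = 0.0543 to 0.0668). H2-Oa, the partner of H2-Ob, read 0.66, 1.06 and 0.78 in CD27+ CMP and -1.21, -1.06 and 0.0068 in GMP without overlap (log2 difference 1.58), with an adjusted p of 0.05096 that became 0.0309 with the replicate block. The peptide-presenting chains showed smaller values, with H2-Aa at 0.37 and H2-Ab1 at 0.41 (adjusted p = 0.285 and 0.872). Cd74, the invariant chain, and Ciita, the class II transactivator, differed by 0.0016 and -0.021.

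Other leading genes higher in CD27+ CMP belonged to no single list. Wfdc17, a small whey acidic protein family gene, read 7.004, 7.78 and 6.94 in CD27+ CMP and -0.060, 0.75 and 0.28 in GMP (log2 difference 6.92, SE 0.24, adjusted p = 6.14e-07). Kcng1, a potassium channel subunit gene, read 5.63, 5.97 and 5.59 in CD27+ CMP and 0.25, 0.602 and 1.86 in GMP (log2 difference 4.83, SE 0.34, adjusted p = 6.44e-05, and 0.0588 in the blocked 6-array fit). Bach2, a transcriptional repressor of lymphoid cells, read 3.53, 3.33 and 3.55 in CD27+ CMP and -0.026, -0.054 and -0.026 in GMP (log2 difference 3.51, SE 0.062, adjusted p = 5.10e-09). The 3 CD27+ CMP readings of Bach2 were close together and the GMP readings lay at the median. Il1r1, the signalling receptor of interleukin 1, read 3.62, 4.12 and 3.46 in CD27+ CMP and 0.62, 0.0044 and -0.062 in GMP (log2 difference 3.55, adjusted p = 2.78e-05), and Vldlr, a lipoprotein receptor gene, read 3.698, 4.799 and 3.47 in CD27+ CMP and -0.070, 1.19 and -0.19 in GMP (log2 difference 3.68, adjusted p = 8.21e-04). Hmga2, a chromatin protein gene of fetal stem cells, read 5.505, 4.24 and 4.79 in CD27+ CMP and 1.07, 0.034 and 2.19 in GMP (log2 difference 3.75, adjusted p = 0.00195, and 0.0682 on the 6 arrays). Hmga2 varied widely in GMP, from the median to above 2. Epb41l4b, a cytoskeletal linker gene, differed by 4.27 (adjusted p = 6.95e-04), Cox6a2, a cytochrome c oxidase subunit gene known from muscle, by 4.27 (adjusted p = 1.16e-04, and 0.0751 in the blocked 6-array fit), Snn, encoding stannin, by 3.61 (adjusted p = 6.03e-06) and Ifi27l2a, an interferon-inducible gene, by 3.59 (adjusted p = 9.55e-04, and 0.0951 in the blocked 6-array fit). Lsp1, an actin-binding protein gene of leukocytes, differed by 3.495 (adjusted p = 0.00474, and 0.0941 on the 6 arrays), with GMP readings of 1.75, 0.48 and 3.13.

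On the GMP side stood receptors that signal through ITAM adaptors. Of 19 measured genes of Fc receptors, Trem receptors and adaptors 6 were lower in CD27+ CMP, and the median log2 difference was -0.034. On the 6 arrays 3 passed. Besides Fcgr3, on which the gates were set, Fcgr4, another Fc gamma receptor gene, read -0.0011, 0.12 and -0.043 in CD27+ CMP and 2.07, 2.58 and 2.51 in GMP (log2 difference -2.36, SE 0.12, adjusted p = 6.03e-06). Clec5a, a lectin receptor gene of myeloid cells, read 2.91, 1.56 and 0.096 in CD27+ CMP and 5.61, 5.57 and 5.16 in GMP (log2 difference -3.93, SE 0.56, adjusted p = 0.00332; adjusted p = 0.0827 on the 6 arrays). Trem3, an activating receptor gene of myeloid cells, read 3.58, 3.54 and 2.47 in CD27+ CMP and 6.03, 6.15 and 5.95 in GMP (log2 difference -2.84, SE 0.299, adjusted p = 6.61e-04, and 0.0588 in the blocked 6-array fit). Fcgr4 was at the median on every CD27+ CMP array, whereas Clec5a and Trem3 were already above it on most of them. Trem1, which amplifies inflammatory responses, differed by -2.21 (adjusted p = 0.00765, and 0.114 on the 6 arrays). Pilrb1, an activating paired receptor gene, read 0.0070, -0.019 and -0.029 in CD27+ CMP and 3.14, 3.08 and 0.905 in GMP (adjusted p = 0.0227, and 0.206 on the 6 arrays), and it did not pass without any CD27+ CMP replicate or GMP replicate 1 or 2 (adjusted p = 0.064996 to 0.0884). The adaptor genes Tyrobp and Fcer1g, through which these receptors signal, differed by 0.17 and 0.29 with overlapping arrays (adjusted p = 1.00 and 1.00).

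Granule proteins are stored by future neutrophils and released against microbes. Of 13 primary granule genes 5 passed, all lower in CD27+ CMP (median log2 difference -0.57), and 3 passed on the 6 arrays. In the leave-one-out fits 1 to 5 passed, with 3 or fewer without any CD27+ CMP or GMP replicate or MEP replicate 2. Mpo, encoding myeloperoxidase, read 2.31, 2.11 and 2.12 in CD27+ CMP and 2.46, 1.94 and 2.601 in GMP (log2 difference -0.16, adjusted p = 1.00), and Lyz2, encoding lysozyme, differed by 0.26 (adjusted p = 1.00). Both genes overlapped between the populations, whereas 11 of the 13 were lower without overlap, against 8.17% of all genes. Prtn3 and Ctsg, granule protease genes, differed by -0.57 and -0.65 without overlap. They did not pass in limma over all probe sets (adjusted p = 0.840 and 0.962). Pglyrp1, an antibacterial peptidoglycan recognition protein gene, read 2.28, 1.33 and 1.44 in CD27+ CMP and 4.46, 4.52 and 5.06 in GMP (log2 difference -2.99, SE 0.27, adjusted p = 3.11e-04, and 0.0775 in the blocked 6-array fit). Elane, encoding neutrophil elastase, read 3.74, 2.36 and 1.75 in CD27+ CMP and 5.04, 4.48 and 5.46 in GMP without overlap, and its difference of -2.38 had an adjusted p of 0.0573, which became 0.0379 with the replicate block. Ms4a3, a membrane protein gene of granulocyte-monocyte progenitors, differed by -2.66 (adjusted p = 0.0417, and 0.0714 on the 6 arrays) and passed in 2 of the 12 leave-one-out fits, those without MEP replicate 1 or 3 (adjusted p = 0.0553 to 0.132 in the others). Hp, encoding haptoglobin, read 3.34, 3.41 and 2.55 in CD27+ CMP and 5.63, 5.52 and 5.81 in GMP (log2 difference -2.55, adjusted p = 0.02304, and 0.0767 in the blocked 6-array fit), and did not pass without CD27+ CMP replicate 1 or 3 or any GMP replicate (adjusted p = 0.05295 to 0.0903).

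Of 17 genes of later neutrophil granules 4 passed, all lower in CD27+ CMP, while the median log2 difference was -0.017. Lcn2, encoding the iron-sequestering lipocalin 2, read 0.10, -0.0089 and -0.017 in CD27+ CMP and 2.33, 3.72 and 3.94 in GMP (log2 difference -3.31, SE 0.34, adjusted p = 5.54e-04, and 0.0921 in the blocked 6-array fit). Cybb, the catalytic subunit of the phagocyte oxidase, read 2.84, 2.22 and 1.17 in CD27+ CMP and 5.15, 4.62 and 4.44 in GMP (log2 difference -2.66, SE 0.41, adjusted p = 0.005497; adjusted p = 0.07402 on the 6 arrays). Anxa1, encoding annexin A1, read 2.71, 2.04 and 2.001 in CD27+ CMP and 4.37, 4.15 and 3.78 in GMP (log2 difference -1.85, SE 0.27, adjusted p = 0.00417). Lcn2 stayed at the median in CD27+ CMP, while Cybb and Anxa1 were above it on every array. S100a8, a subunit gene of calprotectin, read 1.596, 0.26 and -2.74 in CD27+ CMP and 5.08, 5.23 and 2.49 in GMP, the widest spread within CD27+ CMP of the genes described. Its difference of -4.56 (SE 1.08, adjusted p = 0.044996) did not pass on the 6 arrays (adjusted p = 0.257), and it passed in 2 of the 12 leave-one-out fits, those without CD27+ CMP replicate 1 or GMP replicate 3 (adjusted p = 0.06497 to 0.172 in the others). Of the defining genes of mature granules, Ltf, encoding lactoferrin, and Mmp9, a gelatinase gene, were flat at -0.011 and -0.017. Ltf spanned only 0.072 log2 over the 12 arrays. Mmp8, another of these genes, was higher in CD27+ CMP by 0.84 without overlap. It did not pass (adjusted p = 0.686 in limma over all probe sets).

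Of 19 measured factor and cytokine receptor genes of the granulocyte-monocyte branch 3 were lower in CD27+ CMP, and the median log2 difference was 0.12. On the 6 arrays 2 passed, and without CD27+ CMP replicate 3 or GMP replicate 2 only 1 did. Tlr4, the endotoxin receptor, read 0.11, -0.032 and 0.14 in CD27+ CMP and 3.53, 3.27 and 3.301 in GMP (log2 difference -3.29, SE 0.073, adjusted p = 2.15e-08). The CD27+ CMP arrays of Tlr4 lay at the median and the GMP arrays were close together. Gfi1, a repressor of the neutrophil branch, read 3.25, 2.796 and 2.46 in CD27+ CMP and 4.98, 5.14 and 4.496 in GMP (log2 difference -2.04, adjusted p = 0.0233) and did not pass without CD27+ CMP replicate 2 or 3 or GMP replicate 1 or 2 (adjusted p = 0.0694 to 0.0963). Klf4, a transcription factor gene of monocytes, read 1.94, 1.28 and 0.19 in CD27+ CMP and 4.43, 3.82 and 2.395 in GMP (log2 difference -2.41, adjusted p = 0.0306, and 0.236 on the 6 arrays), and it passed in 3 of the 12 leave-one-out fits, those without CD27+ CMP replicate 1, GMP replicate 3 or CD27- CMP replicate 1 (adjusted p = 0.05005 to 0.118 in the others). The lineage factor genes Cebpa and Spi1 differed by -0.071 and 0.47 with overlapping arrays (adjusted p = 1.00 and 0.987). Irf8, a factor of monocytes and dendritic cells, read 4.596, 4.601 and 4.36 in CD27+ CMP and 3.66, 3.06 and 3.74 in GMP without overlap and did not pass (adjusted p = 0.542, and 0.03597 without MEP replicate 1), nor did the macrophage growth factor receptor gene Csf1r at 0.64 (adjusted p = 0.756).

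Monocyte, macrophage and dendritic cell genes differed in both directions, 4 of 23 higher and 3 lower in CD27+ CMP (median log2 difference 0.26); on the 6 arrays 2 were higher and 3 lower. S100a4, a calcium-binding protein gene, read 2.91, 3.24 and 2.78 in CD27+ CMP and 0.22, 0.94 and 0.98 in GMP (log2 difference 2.26, SE 0.22, adjusted p = 4.33e-04, and 0.0597 in the blocked 6-array fit). Ctss, the cathepsin that trims the invariant chain, read 4.44, 4.33 and 4.18 in CD27+ CMP and 2.47, 2.11 and 2.57 in GMP (log2 difference 1.93, SE 0.28, adjusted p = 0.00404). Lower in CD27+ CMP was Clec4a2, a lectin receptor gene of dendritic cells and macrophages, which read 0.55, -0.015 and -0.030 in CD27+ CMP and 5.77, 5.05 and 4.199 in GMP (log2 difference -4.84, SE 0.33, adjusted p = 5.24e-05). Cd14, the endotoxin co-receptor, read -0.014, 0.56 and -0.029 in CD27+ CMP and 3.24, 3.86 and 3.64 in GMP (log2 difference -3.41, adjusted p = 8.98e-06), and Adgre1, the F4/80 antigen of macrophages, read 0.090, 0.23 and -0.090 in CD27+ CMP and 2.55, 2.46 and 2.56 in GMP (log2 difference -2.45, adjusted p = 6.01e-04). The GMP readings of both genes were above 2 on every array, and those of CD27+ CMP were under 1. Itgax, an integrin of dendritic cells, differed by 0.44 (adjusted p = 0.00702, and 0.108 on the 6 arrays). Cx3cr1, the fractalkine receptor, differed by 1.18 (adjusted p = 0.0443, and 0.0963 with the replicate block), and passed in 2 of the 12 leave-one-out fits, those without GMP replicate 1 or CD27- CMP replicate 2 (adjusted p = 0.0537 to 0.139 in the others). Siglech and Xcr1, defining genes of plasmacytoid and cross-presenting dendritic cells, differed by -0.013 and -0.010.

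Among 19 chemokine and chemoattractant genes (median log2 difference -0.0075) 2 were higher, Cx3cr1 and Ccl5, a chemokine gene of T cells and monocytes, which read 3.18, 3.19 and 3.77 in CD27+ CMP and -0.045, -0.013 and 0.19 in GMP (log2 difference 3.34, SE 0.14, adjusted p = 2.30e-06). Of 18 lysosomal genes 2 were higher and 2 lower in CD27+ CMP (median log2 difference -0.079). Lgmn, an asparagine-cutting protease gene, read 1.92, 3.53 and 3.52 in CD27+ CMP and -0.020, 0.011 and -0.053 in GMP (log2 difference 3.01, adjusted p = 0.00127, and 0.0572 on the 6 arrays), and Ctss is given above. Of the lower genes, Ctsl, another cathepsin gene, had a difference of -0.68 (adjusted p = 0.0405, and 0.0741 with the replicate block), and it passed in 3 of the 12 leave-one-out fits, those without CD27+ CMP replicate 2 or CD27- CMP replicate 2 or 3 (adjusted p = 0.0531 to 0.155 in the others). Ctsc, the cathepsin that activates granule proteases, had a difference of -0.43 (adjusted p = 0.0321, and 0.104 on the 6 arrays), and it passed in 5 of the 12 leave-one-out fits, those without CD27+ CMP replicate 1, GMP replicate 3 or any CD27- CMP replicate (adjusted p = 0.0517 to 0.125 in the others).

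Of 18 measured eosinophil, basophil and mast cell genes 6 were lower in CD27+ CMP, with a median log2 difference of -0.44. On the 6 arrays 2 passed, and without GMP replicate 1 there were 3. Prg2, encoding eosinophil major basic protein, read -0.041, -0.098 and -0.11 in CD27+ CMP and 7.12, 7.31 and 4.02 in GMP (log2 difference -6.23, SE 0.71, adjusted p = 0.00102; adjusted p = 0.0524 on the 6 arrays). Its neighbour in the genome and paralog Prg3 read -0.057, -0.043 and -0.052 in CD27+ CMP and 3.54, 3.22 and 2.65 in GMP (log2 difference -3.19, SE 0.18, adjusted p = 1.32e-05). Both genes lay at the median on every CD27+ CMP array, and GMP replicate 3 gave the lowest GMP reading for each. Epx, encoding eosinophil peroxidase, read -0.032, -0.037 and -0.047 in CD27+ CMP and 3.07, 3.62 and 0.036 in GMP, so GMP replicate 3 lay with CD27+ CMP and the gene did not pass (adjusted p = 0.155); without GMP replicate 3 it passed (adjusted p = 4.13e-06). Hdc, the histamine-forming enzyme of basophils and mast cells, read 3.01, 2.38 and 2.15 in CD27+ CMP and 5.79, 5.58 and 5.89 in GMP (log2 difference -3.24, SE 0.32, adjusted p = 4.72e-04), well above the median in both populations. Mcpt8, a basophil protease gene, read 3.399, 3.601 and 3.52 in CD27+ CMP and 4.27, 4.103 and 4.600 in GMP (log2 difference -0.82, adjusted p = 0.0281, and 0.0688 on the 6 arrays) and did not pass without any CD27+ CMP replicate or GMP replicate 1 or 3 (adjusted p = 0.0598 to 0.0951). Ms4a2, a chain of the IgE receptor, differed by -1.38 (adjusted p = 0.0255, and 0.213 on the 6 arrays), and did not pass without GMP replicate 1 or 2 (adjusted p = 0.0878 to 0.106). Cpa3, the mast cell carboxypeptidase, differed by 0.21 with overlap (adjusted p = 1.00).

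Other leading genes lower in CD27+ CMP included enzymes and surface proteins. Sgms2, a sphingomyelin synthase gene, read 1.97, 0.0078 and -0.0078 in CD27+ CMP and 7.25, 7.51 and 5.94 in GMP (log2 difference -6.24, SE 0.55, adjusted p = 2.76e-04, and 0.0549 in the blocked 6-array fit). Hsd11b1, which converts inactive to active glucocorticoid, read 3.26, -0.022 and -0.029 in CD27+ CMP and 7.64, 7.08 and 6.77 in GMP (log2 difference -6.096, SE 0.75, adjusted p = 0.00152; adjusted p = 0.0622 on the 6 arrays). Prom1, encoding the membrane protein prominin 1 (CD133), read 2.93, 0.072 and -0.101 in CD27+ CMP and 6.59, 7.78 and 6.27 in GMP (log2 difference -5.91, SE 0.72, adjusted p = 0.001498; adjusted p = 0.0614 on the 6 arrays). In all of these CD27+ CMP replicate 1 read 1.97 to 3.26 while replicates 2 and 3 lay at the median. Chst13, a sulfotransferase gene of chondroitin chains, read 1.01, -0.032 and 0.016 in CD27+ CMP and 5.87, 6.28 and 6.34 in GMP (log2 difference -5.83, SE 0.26, adjusted p = 3.67e-06), and Vcam1, an adhesion molecule, read 0.72, -0.040 and -0.097 in CD27+ CMP and 5.68, 5.85 and 3.74 in GMP (log2 difference -4.89, adjusted p = 4.72e-04, and 0.0631 in the blocked 6-array fit). Mgam, encoding the starch-digesting maltase-glucoamylase, read -0.082, -0.11 and -0.11 in CD27+ CMP and 4.66, 4.61 and 4.48 in GMP (log2 difference -4.68, SE 0.066, adjusted p = 1.83e-09). Far2, a fatty acyl reductase gene, read 0.27, -0.045 and -0.052 in CD27+ CMP and 4.38, 4.86 and 4.304 in GMP and differed by -4.46 (adjusted p = 2.59e-07), and Ncam1, a neural adhesion molecule, by -4.17 (adjusted p = 2.38e-05). Mgam lay near the median on all 3 CD27+ CMP arrays, and for Far2 replicate 1 was again the highest of its group. Gda, encoding guanine deaminase, read 0.22, -1.97 and -3.39 in CD27+ CMP and 4.26, 3.54 and 3.19 in GMP (log2 difference -5.38, adjusted p = 0.00604, and 0.0778 on the 6 arrays). Dmkn, encoding dermokine, read 3.83, 3.501 and 0.25 in CD27+ CMP and 7.16, 7.48 and 6.08 in GMP (log2 difference -4.38, adjusted p = 0.01405, and 0.159 on the 6 arrays), and it did not pass without GMP replicate 1 or 2 (adjusted p = 0.0535 to 0.0612). Afap1, an actin filament linker gene, differed by -4.13 (adjusted p = 1.78e-04).

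**Figure D3:**
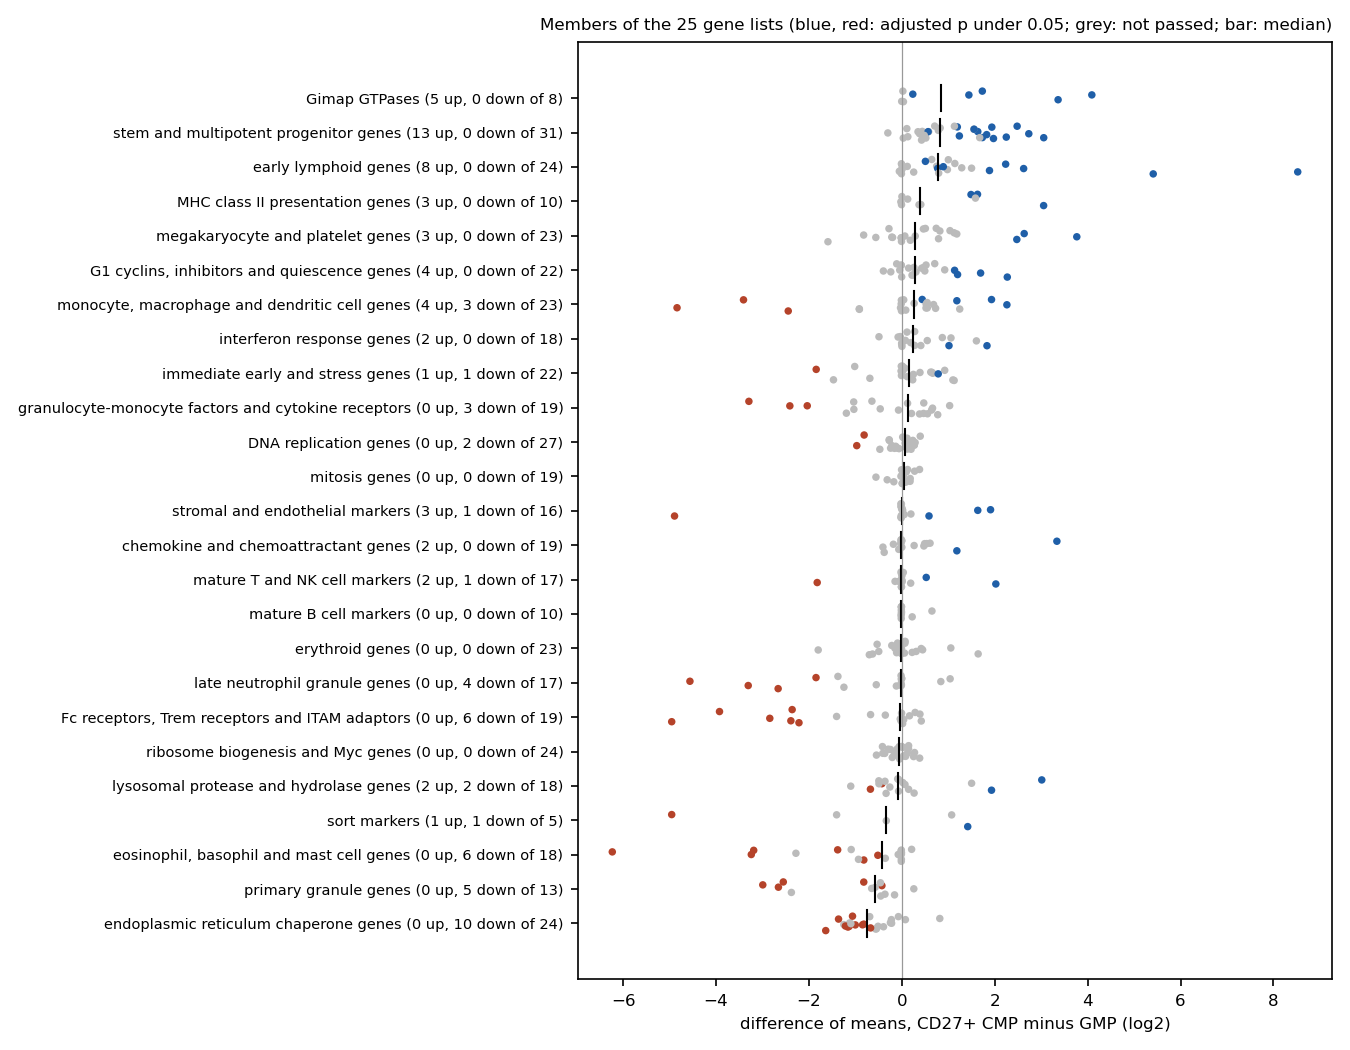
Log2 differences (x axis, CD27+ CMP minus GMP) of the measured members of the 25 gene lists, 1 row per list sorted by its median; blue and red points had an adjusted p under 0.05 and bars are medians. The medians run from 0.84 for the Gimap GTPases to -0.75 for the endoplasmic reticulum chaperones, and no stem or early lymphoid gene was called lower.

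Chaperones fold secreted proteins in the endoplasmic reticulum. Of 24 measured chaperone genes 10 passed as lower in CD27+ CMP and 0 as higher (17 and 1 at an unadjusted p under 0.05 in limma), 17 were lower without overlap, and the median log2 difference was -0.75. Of all genes 2.63% passed as lower and 8.17% were lower without overlap. On the 6 arrays 5 passed, and the leave-one-out fits gave 8 to 11. Pdia6, a protein disulfide isomerase gene, read 0.58, 0.63 and 0.74 in CD27+ CMP and 1.34, 1.24 and 1.38 in GMP (log2 difference -0.67, SE 0.057, adjusted p = 2.21e-04). Manf, a small secreted chaperone gene, read 0.098, 0.27 and 0.24 in CD27+ CMP and 1.07, 1.44 and 1.499 in GMP (log2 difference -1.13, SE 0.15, adjusted p = 0.00234). Dnajb11, a co-chaperone gene, read -0.088, 0.13 and 0.12 in CD27+ CMP and 0.71, 0.95 and 1.04 in GMP (log2 difference -0.85, SE 0.12, adjusted p = 0.00315). The readings of these genes were closely grouped within each population. P4hb, the founding disulfide isomerase, differed by -0.82 (adjusted p = 0.00447, and 0.0765 in the blocked 6-array fit). Hspa5, encoding the main chaperone BiP, read 0.0056, -0.0040 and 0.073 in CD27+ CMP and 1.08, 1.703 and 0.93 in GMP (log2 difference -1.21, adjusted p = 0.0136, and 0.0713 on the 6 arrays). Dnajc3, a co-chaperone of BiP, read 0.799, -0.25 and -0.0015 in CD27+ CMP and 1.75, 1.75 and 1.96 in GMP (log2 difference -1.64, adjusted p = 0.00595, and 0.0735 on the 6 arrays). Xbp1, the transcription factor that drives such genes in secretory cells, differed by -1.06 (adjusted p = 0.00667, and 0.0619 on the 6 arrays), and Pdia4 by -1.002 (adjusted p = 0.00718, and 0.0569998 on the 6 arrays).

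The weaker calls of the list were Sdf2l1, a BiP-associated protein gene, and Hyou1, a large chaperone gene. Sdf2l1 differed by -1.16 (adjusted p = 0.0173, and 0.0811 on the 6 arrays) and did not pass without CD27+ CMP replicate 1 or 3 or GMP replicate 2 or 3 (adjusted p = 0.0536 to 0.0685). Hyou1 differed by -1.36 (adjusted p = 0.0417, and 0.181 on the 6 arrays), and it passed in 3 of the 12 leave-one-out fits, those without CD27+ CMP replicate 2, GMP replicate 1 or MEP replicate 3 (adjusted p = 0.0572 to 0.146 in the others). Its other probe sets differed by -0.547 and -0.549 and did not pass in limma over all probe sets (adjusted p = 0.852 and 0.655). Members that did not pass included the lectin chaperone genes Calr and Canx at -0.55 and -0.69 and Hsp90b1 at -1.12 (adjusted p = 0.0774, 0.177 and 0.157). Ddit3, the stress factor that promotes cell death, differed by 0.82 (adjusted p = 0.187) without overlap, and its GMP readings of -0.97, -1.12 and -2.17 lay below the CD27+ CMP readings of -0.72, -0.41 and -0.68. Sec61a1, a channel gene for proteins entering the endoplasmic reticulum, was the other member above 0, at 0.077 with overlap.

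**Figure D4:**
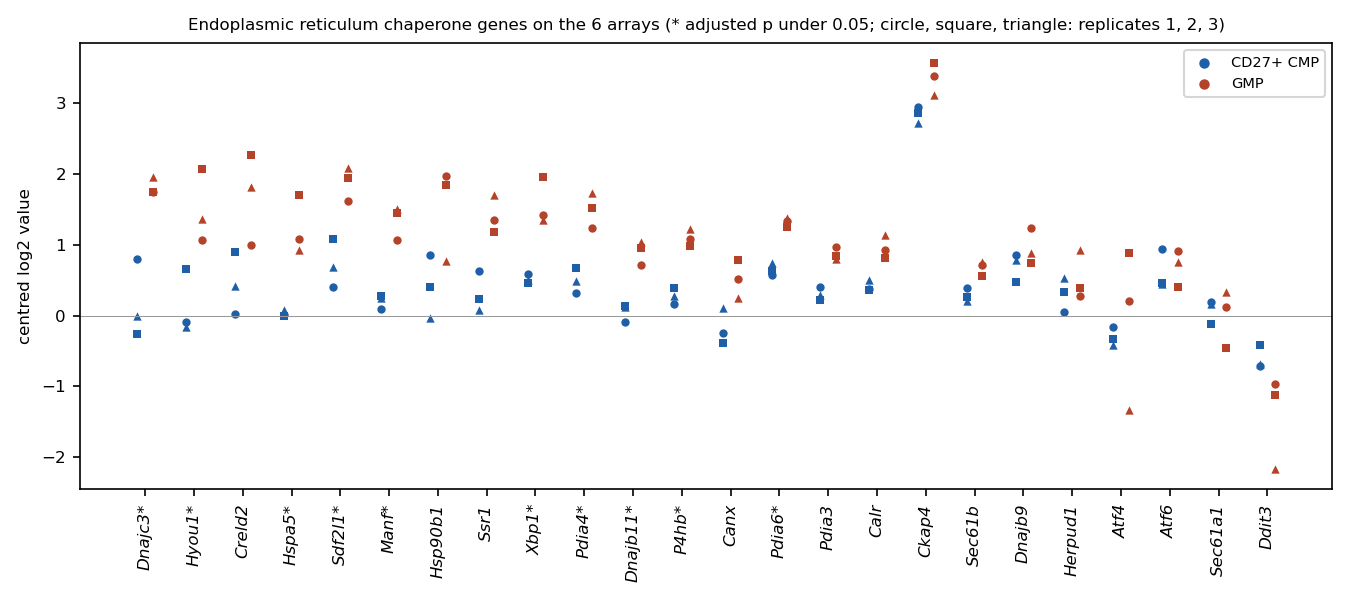
Centred log2 values (y axis) of the 24 endoplasmic reticulum chaperone genes on the 3 CD27+ CMP arrays (blue) and the 3 GMP arrays (red), sorted by difference; circles, squares and triangles are replicates 1, 2 and 3 and an asterisk marks an adjusted p under 0.05. The GMP points lie above the CD27+ CMP points for 17 genes, and for Ddit3 at the right they lie below.

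Promoters of the chaperone genes are shown because many genes of this pathway carry the endoplasmic reticulum stress element, a motif read by ATF6 with NF-Y. The element was searched as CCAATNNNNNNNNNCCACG on both strands of the 250 bases before each RefSeq gene start (GRCm38.p6). It was found in 37 of 32851 windows (0.113%). Of the 24 measured chaperone list genes 10 passed as lower. Of the 20 with a window 7 held the element, and 3 of those 7 passed as lower, namely Dnajc3, Hspa5 and Pdia6. The last 150 bases before the start are given 5′ to 3′ on the gene's strand, with the element in capitals, for these genes and for Creld2, a secreted chaperone gene that did not pass (log2 difference -1.25, adjusted p = 0.0684).
Hspa5, chr2:34771940-34772089, + strand: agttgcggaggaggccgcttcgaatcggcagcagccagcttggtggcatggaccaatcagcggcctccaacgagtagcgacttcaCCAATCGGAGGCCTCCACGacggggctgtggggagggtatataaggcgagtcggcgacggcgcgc
Pdia6, chr12:17266439-17266588, + strand: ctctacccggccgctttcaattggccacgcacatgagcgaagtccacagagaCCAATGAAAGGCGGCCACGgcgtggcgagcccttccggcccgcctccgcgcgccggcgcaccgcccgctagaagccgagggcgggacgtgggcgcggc
Dnajc3, chr14:118937782-118937931, + strand: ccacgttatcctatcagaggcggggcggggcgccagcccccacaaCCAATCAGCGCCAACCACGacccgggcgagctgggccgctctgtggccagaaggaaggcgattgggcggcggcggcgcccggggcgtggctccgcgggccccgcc
Creld2, chr15:88819496-88819645, + strand: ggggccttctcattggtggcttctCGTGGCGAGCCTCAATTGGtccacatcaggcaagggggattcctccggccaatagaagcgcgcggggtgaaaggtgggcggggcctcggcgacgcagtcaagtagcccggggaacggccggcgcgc
The element stood on the gene's strand in Hspa5, Pdia6 and Dnajc3 and on the opposite strand in Creld2. It was also held by the list genes Calr, Canx and Hsp90b1, which did not pass.

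Of the 35 genes with the element 19 were measured. Of these 4 passed in limma, all lower, and their median difference was -0.38, against -0.0096 for the 14452 measured genes with a window. The 12 that were not on the chaperone list had a median of -0.0108, and 1 of them passed, Ero1b, the oxidase that recharges disulfide isomerases (log2 difference -1.31, SE 0.28, adjusted p = 0.0294). Ero1b had an adjusted p of 0.0537 with the replicate block and 0.141 on the 6 arrays, and it did not pass without CD27+ CMP replicate 2 or 3, any GMP replicate or MEP replicate 2 (adjusted p = 0.0528 to 0.111). A match describes the letters in the window and does not show that a factor bound there.

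Cell division genes gave few calls. Of 19 mitosis genes 0 passed in limma in either direction, and 0 had an unadjusted p under 0.05 (median log2 difference 0.045). Mki67 and Cdk1, genes of dividing cells, had differences of 0.28 and 0.031. Of 27 DNA replication genes 2 were lower in CD27+ CMP (median log2 difference 0.073). Cdc45, a part of the replication helicase, read -0.56, -0.104 and -0.086 in CD27+ CMP and 0.74, 0.68 and 0.74 in GMP (log2 difference -0.97, SE 0.12, adjusted p = 0.00187, and 0.0991 in the blocked 6-array fit), and Rrm2, a subunit of ribonucleotide reductase, read -0.55, -0.066 and -0.41 in CD27+ CMP and 0.33, 0.69 and 0.39 in GMP (log2 difference -0.81, adjusted p = 0.00748, and 0.1004 on the 6 arrays). Of 22 G1 cyclin, inhibitor and quiescence genes 4 were higher (median log2 difference 0.28), and 2 were without CD27+ CMP replicate 1 or 2. Ccnd1, the cyclin D1 gene, read 2.25, 2.44 and 1.96 in CD27+ CMP and 0.98, 0.24 and 0.34 in GMP (log2 difference 1.696, SE 0.24, adjusted p = 0.00362, and 0.0895 in the blocked 6-array fit), and Txnip, a thioredoxin-binding protein gene, read 0.55, 0.26 and 0.43 in CD27+ CMP and -0.73, -1.04 and -0.601 in GMP (log2 difference 1.200, adjusted p = 0.00585). Cdkn1a, encoding the cell cycle inhibitor p21, read 4.01, 4.16 and 3.73 in CD27+ CMP and 1.802, 0.52 and 2.76 in GMP (log2 difference 2.27, adjusted p = 0.0174, and 0.178 on the 6 arrays), and did not pass without CD27+ CMP replicate 1 or 2 or GMP replicate 1 (adjusted p = 0.0528 to 0.0598). Ccnd3, the cyclin D3 gene, differed by 1.14 (adjusted p = 0.0396, and 0.221 on the 6 arrays), and it passed in 1 of the 12 leave-one-out fits, that without GMP replicate 1 (adjusted p = 0.0534 to 0.152 in the others). Of 24 ribosome biogenesis and Myc genes 0 passed in limma and 0 had an unadjusted p under 0.05 (median log2 difference -0.051), and Myc itself differed by 0.38 (adjusted p = 0.447).

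Of 23 erythroid genes 0 passed in limma in either direction, and 2 had an unadjusted p under 0.05 (median log2 difference -0.0092). Without GMP replicate 1 there was 1 higher and 1 lower, and without GMP replicate 3 there was 1 higher. The mean of the list lay between -3.31 and -2.51 on the CD27+ CMP arrays and between -3.63 and -2.23 on the GMP arrays. Klf1 and Gata1, the leading erythroid factor genes, differed by 0.45 and 1.05 (adjusted p = 1.00 and 0.652), and the GMP readings of Klf1 ran from -6.996 to -2.63. Of 23 megakaryocyte and platelet genes 3 were higher in CD27+ CMP (median log2 difference 0.29), and without GMP replicate 2 there was also 1 lower. F2r, the thrombin receptor, read -0.97, -0.67 and -0.95 in CD27+ CMP and -5.33, -4.17 and -4.39 in GMP (log2 difference 3.77, SE 0.297, adjusted p = 1.30e-04), and its means of 1.74 in CD27- CMP and 1.04 in MEP were higher than both. Plek, encoding pleckstrin, read 3.03, 2.41 and 3.396 in CD27+ CMP and 0.798, 0.066 and 0.54 in GMP (log2 difference 2.48, adjusted p = 0.005896). Selp, encoding P-selectin, read 2.51, 3.399 and 2.96 in CD27+ CMP and -0.28, 0.96 and 0.28 in GMP (log2 difference 2.63, adjusted p = 0.0128, and 0.0508 on the 6 arrays), and it did not pass without GMP replicate 1 (adjusted p = 0.0511). The platelet-defining genes Itga2b, Pf4 and Gp9 differed by 0.82, 1.18 and 0.46 and did not pass (adjusted p = 0.657, 0.429 and 1.00).

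Markers of mature lymphocytes and of marrow stroma were read for other cells in the gates. Centring removes absolute signal, so a difference near 0 does not say whether such cells were absent or equally present in both populations. Of 10 mature B cell markers 0 passed in limma and 0 had an unadjusted p under 0.05 (median log2 difference -0.0092). The mean of the list ran from 0.31 to 0.36 in CD27+ CMP and from 0.16 to 0.35 in GMP, and Ms4a1 and Cd79a, the defining genes, differed by -0.0084 and -0.0099. Of 17 mature T and NK cell markers 2 were higher and 1 lower (median log2 difference -0.0075), and the mean ran from 0.23 to 0.25 in CD27+ CMP and from 0.19 to 0.21 in GMP. The T cell receptor component Cd3e read between -0.025 and 0.13 on the 6 arrays, and Cd4, Cd8a and the NK receptor Ncr1 differed by -0.0099, 0.032 and -0.0075. Against these flat genes Klrd1, the CD94 receptor of NK cells, read 2.09, 1.87 and 2.04 in CD27+ CMP and -0.025, -0.0010 and -0.039 in GMP (log2 difference 2.02, SE 0.052, adjusted p = 7.04e-08). Nkg7, a granule membrane protein gene of cytotoxic cells, read 1.55, 1.64 and 1.44 in CD27+ CMP and 3.32, 3.23 and 3.54 in GMP (log2 difference -1.82, SE 0.28, adjusted p = 0.0049003). Cd28 differed by 0.53 (adjusted p = 0.0411, 0.0936 with the replicate block and 0.257 on the 6 arrays), and passed in 2 of the 12 leave-one-out fits, those without CD27+ CMP replicate 1 or GMP replicate 1 (adjusted p = 0.0598 to 0.147 in the others).

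Of 16 stromal and endothelial markers 3 were higher and 1 lower in CD27+ CMP (median log2 difference -0.0064), and the mean of the list ran from 0.45 to 0.50 in CD27+ CMP and from 0.43 to 0.57 in GMP. Emcn, a sialomucin gene of endothelium and stem cells, read 1.27, 1.56 and 2.03 in CD27+ CMP and -0.031, 0.020 and -0.044 in GMP (log2 difference 1.63, SE 0.15, adjusted p = 3.16e-04, and 0.0768 in the blocked 6-array fit). Pdgfrb, a growth factor receptor gene of perivascular cells, read 2.78, 3.09 and 3.02 in CD27+ CMP and 1.06, 0.72 and 1.38 in GMP (log2 difference 1.91, SE 0.302, adjusted p = 0.00604, and 0.0632 in the blocked 6-array fit). Pecam1, an adhesion molecule of endothelium and blood cells, differed by 0.59 (adjusted p = 0.00318, and 0.0728 on the 6 arrays). The lower gene was Vcam1, given above. The defining genes Cdh5 of endothelium, Pdgfra of mesenchyme and Col1a1 of osteoblasts stayed near the median, with differences of -0.016, 0.0024 and 0.051.

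Interferon and stress genes gave few calls. Of 18 interferon response genes 2 were higher in CD27+ CMP (median log2 difference 0.23), and on the 6 arrays 0 passed. At an unadjusted p under 0.05 in limma 6 were higher and 0 lower. Without overlap 8 were higher and 1 lower, against 7.49% and 8.17% of all genes. Ifi27l2a, given above, is not on this list. Usp18, which curbs interferon signalling, read -0.46, 0.28 and 0.41 in CD27+ CMP and -1.83, -2.35 and -1.09 in GMP (log2 difference 1.83, adjusted p = 0.0195, and 0.122 on the 6 arrays), and it did not pass without CD27+ CMP replicate 2 or 3 or GMP replicate 1 or 2 (adjusted p = 0.066999 to 0.0758). Irf9, a subunit of the interferon-responsive factor ISGF3, differed by 1.02 (adjusted p = 0.0255, and 0.1502 on the 6 arrays), and did not pass without CD27+ CMP replicate 3 or GMP replicate 1 or 2 (adjusted p = 0.0727 to 0.103). Of 22 immediate early and stress genes 1 was higher and 1 lower (median log2 difference 0.16), and without CD27- CMP replicate 1 or 2 there were 2 or 3 higher. Gadd45b, a stress-inducible gene, read 2.26, 2.12 and 1.67 in CD27+ CMP and 4.02, 4.05 and 3.52 in GMP (log2 difference -1.84, SE 0.19, adjusted p = 6.71e-04). Klf6 differed by 0.78 (adjusted p = 0.0127, and 0.132 on the 6 arrays) and did not pass without CD27+ CMP replicate 3 (adjusted p = 0.05195).

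The same contrast was set beside that of the CD27- populations, CD27- CMP minus MEP, on the other 6 arrays. There 6 genes passed (0.033%), 3 higher and 3 lower in CD27- CMP, with 1101 at an unadjusted p under 0.05, and 0 of the 6 were among the 948. Leaving out 1 array gave 3 to 52, with 52 without CD27- CMP replicate 3. The 6 genes were the transcription factor gene Fli1, the adaptor gene Lcp2, the motor protein gene Myo1g, Efr3a, Rom1 and the fatty acid desaturase gene Scd1. The test of the difference between the contrasts passed in 377 genes (2.07%), of which 351 were among the 948. It was as low as 228 without MEP replicate 2 and 251 without CD27- CMP replicate 2. Dntt, Flt3, Mecom and Hlf passed it (adjusted p = 3.42e-07, 8.18e-04, 0.00144 and 0.00226), and so did Prg2, Chst13, Tlr4 and Mgam (adjusted p = 0.0175, 7.46e-05, 5.22e-07 and 4.68e-08). The test contains the CD27+ CMP minus GMP difference, on the same arrays, by which the 948 genes were called. The overlap of 351 genes and the passing of the genes named here are therefore not separate support.

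Mycn, Meis1 and Ctss did not pass the test of the difference (adjusted p = 0.991, 0.3903 and 0.281). Mycn averaged 1.400 in CD27+ CMP and 1.099 in CD27- CMP, against -1.65 in GMP and -1.15 in MEP. Both CMP fractions thus read higher than the population they were set against, although the CD27- contrast of 2.25 did not pass on its own (adjusted p = 0.202). Meis1 averaged 2.07, 0.14, -0.37 and -1.56 in CD27+ CMP, GMP, CD27- CMP and MEP. The chaperone genes Hspa5 and Hyou1, whose CD27- contrasts were -0.51 and -0.63, did not pass the test of the difference either (adjusted p = 0.5897 and 0.912), whereas Pdia6 did (adjusted p = 0.00856).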

How the data were processed

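Expression was measured with 1 array per sample, 3 per population. The deposited values come from the authors' GCRMA step (per the submitters' processing notes), with neither its version nor its log base stated here. These deposited values were read as log2, the scale GCRMA usually returns, which is an assumption. Every probe set is centred on its median over the 12 arrays, so absolute signal is lost, and GCRMA draws weak signals toward background, which makes the size of a fold against a group near background uncertain. Of 45037 probe sets 34945 had 1 gene symbol, and a gene was read from the probe set that varied most across the 12 arrays. limma 3.58.1 in R 4.3.3 fitted 1 mean per population over 12 arrays, with empirical Bayes moderation, two-sided tests and Benjamini-Hochberg adjustment over all genes or probe sets; SE is the standard error of a difference (median 0.144 log2). The script was tested on simulated data.

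Named genes are the 15 with the largest called difference in each direction without overlap, the 3 largest in each direction of each list, markers, and list members that a background sentence needs. The members and lists were chosen with earlier results of these data known. Arrays are limited in precision by their number. Replicate numbers in the titles were checked for pairing: deviations from the group means of same-numbered CD27+ CMP and GMP arrays correlated at 0.57, 0.23 and 0.26. Of the pairs with different numbers, CD27+ CMP replicate 2 with GMP replicate 3 also reached 0.23, and the other 5 were below 0. Every same-numbered pair exceeded 0.1, and the fit with a replicate block is given as an alternative where it changes a call. The deviations within a group sum to 0, so values below 0 partly follow from those above it. These correlations therefore cannot settle whether the numbers pair the samples, and the labels do not say what a number shares. Alternatives were the 6 arrays alone, the replicate block, array weights, robust moderation, centring, quantile normalization, a range filter, the mean of a gene's probe sets, a minimum difference and leaving out arrays.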

Additional observations from a re-analysis of the deposited data

How the results depend on the processing

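Fitting the 6 arrays alone called 291 probe sets and 233 genes higher and 309 probe sets and 244 genes lower; a replicate block on these 6 arrays, added after seeing the data, called 193 and 179 higher and 195 and 193 lower. Array weights, whose estimation stopped before it converged, called 3599 probe sets and 1407 genes higher and 4018 and 1351 lower, and a minimum difference of 1 log2 left 447 probe sets and 318 genes lower. With the replicate block over all 12 arrays 478 genes were higher and 504 lower. Leaving out 1 array gave 408 to 691 probe sets and 310 to 516 genes higher, 451 to 741 and 316 to 488 lower, 3 to 52 genes between CD27- CMP and MEP and 228 to 415 for the difference of the contrasts. With array weights the last 2 counts were 31 and 711, and a range filter gave 14 for CD27- CMP against MEP. The cause of these changes was not tested.

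Of 191 genes followed for the text 126 passed. Of these 121 kept their call with the replicate block, which changed no call other than those of Cd28, Ctsl, Cx3cr1, Ero1b and Rag2 (lost) and Elane, Fcgr2b and H2-Oa (gained). The 6-array fit kept 74 and its replicate block 58. Centring kept 123, losing Ctsl, Cx3cr1 and S100a8, and quantile normalization kept 113, losing among others Gfi1, Hp, Hyou1, Ms4a3 and Selp. The mean of the probe sets kept 121, losing Cd28, Ctsc, Hyou1, Klf6 and Rrm2. No difference of these genes changed sign with a call. Another probe set that spanned at least 2 log2 had the same sign and did not pass for Anxa1, Cox6a2, Ctsc, Dnajc3, Gadd45b, H2-DMb2, Hyou1, Klf6, Papss2, Plek, Selp, Sgms2, Txnip, Vldlr and Xbp1. The small number of arrays limits all tests.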

Other observations

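The genes here were chosen after their values were seen, among the larger differences outside the lists, and are given as values alone. Members of 1 family went in opposite directions. Prkcq and Prkcb are protein kinase C genes of lymphocytes. Prkcq read -0.89, -0.034 and -0.62 in CD27+ CMP and -4.46, -4.35 and -2.77 in GMP. Prkcb read 0.98, -0.053 and -0.029 in CD27+ CMP and 4.78, 3.92 and 4.08 in GMP. Their log2 differences were 3.35 and -3.96 (limma, adjusted p = 0.00215 and 7.80e-05; Prkcq 0.0579 on the 6 arrays). Among whey acidic protein genes Wfdc17 was higher by 6.92, while Wfdc21 read 1.09, -0.061 and -0.12 in CD27+ CMP and 4.03, 6.15 and 2.53 in GMP (log2 difference -3.93, adjusted p = 0.0167 in limma, and 0.171 on the 6 arrays) and did not pass without CD27+ CMP replicate 2 or 3 or GMP replicate 1 (adjusted p = 0.0502 to 0.0641). S100a6 was higher by 3.05 (adjusted p = 5.67e-04 in limma, and 0.0571 in the blocked 6-array fit), beside S100a4 at 2.26 and S100a8 at -4.56. Papss2, which makes the sulfate donor that sulfotransferases use, read 2.49, 0.87 and 1.11 in CD27+ CMP and 5.37, 4.55 and 4.82 in GMP (log2 difference -3.42, adjusted p = 0.00122), the same direction as the sulfotransferase gene Chst13. B4galt6, which adds galactose to ceramide sugars, read 2.63, 1.41 and 1.403 in CD27+ CMP and 5.76, 5.77 and 4.69 in GMP (log2 difference -3.59, adjusted p = 0.00123, and 0.0560 in the blocked 6-array fit), the same direction as the sphingomyelin synthase gene Sgms2.

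Some genes separated CD27+ CMP from GMP at readings below the 12-array median. Slc40a1, the iron exporter ferroportin, read -4.81, -5.84 and -5.66 in CD27+ CMP and -1.87, -1.56 and -2.71 in GMP, with means of 1.795 in CD27- CMP and 1.93 in MEP (log2 difference -3.39, adjusted p = 4.39e-04 in limma, and 0.0705 in the blocked 6-array fit). Grb10, an imprinted adaptor gene of growth factor receptors, read -4.72, -4.84 and -4.77 in CD27+ CMP and -1.59, -0.89 and -0.93 in GMP, with means of 1.23 in CD27- CMP and 1.26 in MEP (log2 difference -3.64, adjusted p = 1.95e-05 in limma). Both were lowest in CD27+ CMP of the 4 populations, with GMP between CD27+ CMP and the CD27- populations.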
